A study of Mus musculus with 6 samples.

Results

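The genes described here make and export hepatic triglyceride. They are the glycerol 3-phosphate acyltransferase gene Gpam, the lysophosphatidate acyltransferase genes Agpat2 and Agpat3, the lipin genes Lpin1, Lpin2 and Lpin3, the diacylglycerol acyltransferase genes Dgat1 and Dgat2, the monoacylglycerol acyltransferase gene Mogat1 and the lipid transfer protein gene Mttp. The genes were chosen by name, and all probe sets that the array annotation assigned to exactly 1 of these symbols were taken, 184 of 229581 probe sets for 10 of 16277 genes. Liver RNA had been hybridised to 6 Affymetrix exon arrays for mouse, on which most genes are read by several probe sets. Of these, 3 came from SRSF3HKO mice, in which hepatocytes lack the splicing factor SRSF3, and 3 from age-matched WT mice, littermates by the series' title. Both genotypes were untreated and 1 month old. The promoter that drives the deletion and the alleles carried by the WT mice are not given in the sources used here. The extraction protocol names 3 knockout mice but does not say how many WT mice were used. Every p-value therefore rests on the spread among these arrays, part of which may be technical.

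Triglyceride is built on a glycerol 3-phosphate backbone. Acyltransferases add fatty acids to give lysophosphatidate and then phosphatidate, lipins remove the phosphate to give diacylglycerol, and diacylglycerol acyltransferases add the last fatty acid. Diacylglycerol is also a precursor of phosphatidylcholine and phosphatidylethanolamine, so the lipin step lies at a branch between storage lipid and membrane lipid. In hepatocytes the microsomal triglyceride transfer protein, the product of Mttp, loads triglyceride onto apolipoprotein B to form very low density lipoprotein (VLDL), the particle in which the liver exports lipid.

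The level of a gene is the median of log2(intensity + 16) over its probe sets, a scale that understates the change of dim genes. Every log2 change is SRSF3HKO minus WT and is given with its SE from limma's fit of all 11707 genes above a detection floor of 5.35. Adjusted p-values are limma's, over all genes tested, and a gene is called at an adjusted p under 0.05. Median intensity lay between 75.3 and 89.6 on the 6 arrays, and the number of arrays limits the precision. The median SD of a gene was 0.187 among WT arrays and 0.291 among SRSF3HKO arrays. The Y-linked gene Eif2s3y was at log2 levels of 8.62 and 8.36 on WT replicates 1 and 2 and 8.99 on SRSF3HKO replicate 3. It was under the floor on the other arrays, so the genotypes are not balanced for Y-linked signal. Srsf3 itself had a gene-level log2 change of 0.26 ± 0.31 (limma adjusted p = 0.625). The part of the gene that was deleted is not given in the sources used here, so this median over 14 probe sets does not check the labels. All 10 measured hepatocyte markers were above the floor on average, with summed intensities of 111374 to 116683 in WT and 97628 to 110983 in SRSF3HKO, which do not overlap. Of the 10, 4 were lower on every SRSF3HKO array than on any WT array and 1, Serpina1e, was called lower (-2.49, limma adjusted p = 0.0331). Of 7 measured adipocyte markers 5 were above the floor, Adipoq and Lep were not, and the summed intensity was 367 to 459 in WT and 327 to 460.3 in SRSF3HKO. All 8 macrophage markers were above the floor. Their summed intensity was 2724 to 3144 in WT, 3079 and 3508 on SRSF3HKO replicates 2 and 3, and 19130.5 on SRSF3HKO replicate 1. Marco, Cd68 and Vsig4 were above every WT array on all 3 SRSF3HKO arrays, and Marco was called higher (2.78, limma adjusted p = 0.0450). Adgre1, Clec4f, Csf1r and Timd4 were above every WT array on SRSF3HKO replicate 1 but below every one on replicates 2 and 3. The macrophage markers thus did not move together. The summed cholangiocyte markers, 5 of 6 above the floor, separated the genotypes as well, at 497 to 709.6 in WT against 838 to 2988 in SRSF3HKO, with none called. Only Spp1 of the 5 was above every WT array on all 3 SRSF3HKO arrays (1.56, limma adjusted p = 0.0932). It was the brightest of them on every array, so the sum rests largely on this 1 gene. Krt19 of the same list had a change of -0.31. Kdr of 8 endothelial markers was called lower (log2 change -0.87), with overlapping sums of 2904 to 4106 in WT and 1765 to 3722 in SRSF3HKO. Of the 8, 3 were lower on every SRSF3HKO array than on any WT array. They were Kdr, Eng and Lyve1, the last 2 without a call (-0.54 and -0.66, limma adjusted p = 0.116 and 0.124). Col3a1 and Ngfr of 8 stellate cell markers were called lower (-1.41 and -0.83). Dcn of the same list was above every WT array on all 3 SRSF3HKO arrays (0.76, limma adjusted p = 0.0724). The summed stellate signal overlapped, at 3332 to 4052 in WT and 3537 to 5655 in SRSF3HKO. Of 3 erythroid markers Tfrc was called higher (1.36) and Alas2 lower (-2.35). The third, Slc4a1, was near the floor and below every WT array on all 3 SRSF3HKO arrays (-0.42, limma adjusted p = 0.112). The part of these cell types in the changes of the 10 genes was not tested. In whole liver, a change in the number of cells of a type and a change in RNA per cell cannot be told apart.

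Of the 10 genes, 9 were above the floor, each of them on all 3 arrays of both genotypes, and Mogat1 was below it on all 6. Among the 9 tested, Agpat2 fell and Lpin2 rose. Over all genes tested 11.9% were called, 6.85% higher and 5.03% lower. The 2 called of 9 (22.2%) are too few to be read against that share. The arrays of the genotypes did not overlap for 5 of the 9, Agpat2, Lpin2, Lpin3, Dgat1 and Dgat2, against 35.6% of all genes tested (21.6% higher and 14% lower in SRSF3HKO). The median log2 change of the 9 was -0.07, against 0.08 over all genes, and the median size of the change regardless of sign was 0.61 against 0.33. Unadjusted p-values under 0.05 were found for those 5 genes without overlap, against 29% of all genes tested.

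**Figure D1:**
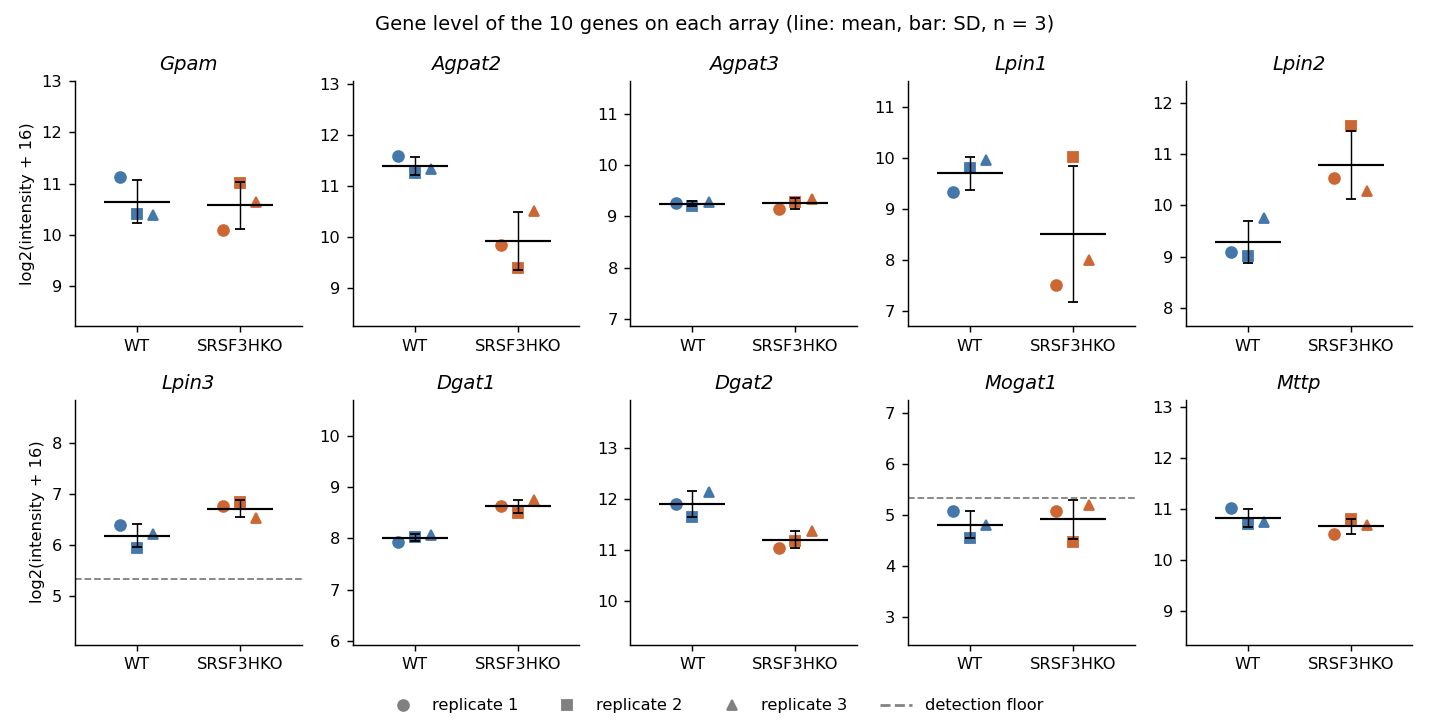
Gene level of the 10 genes on each array, as log2(intensity + 16) on axes of equal span, with WT in blue and SRSF3HKO in orange, symbols for the replicates, a line for the mean and a bar for the SD (n = 3). Agpat2, Lpin2, Lpin3, Dgat1 and Dgat2 separate by genotype, SRSF3HKO replicate 2 stands above the 3 WT arrays for Lpin1 while replicates 1 and 3 stand below them, and Mogat1 lies below the dashed detection floor of 5.35 on every array.

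The acylation steps before the lipins differed from gene to gene. Gpam codes for the mitochondrial glycerol 3-phosphate acyltransferase, which catalyses the entry step. Its intensity was 2220.3, 1345 and 1326 on the WT arrays and 1067, 2034.5 and 1579.8 on the SRSF3HKO arrays, in replicate order. The groups overlapped, with WT replicate 1 highest and SRSF3HKO replicate 1 lowest. Gpam had a log2 change of -0.07 ± 0.30 (95% interval -0.75 to 0.61, limma adjusted p = 0.907). Its 30 tested probe sets ranged from -0.62 to 0.32, with 12 positive and 18 negative, none called and none at an unadjusted p under 0.05 (limma). The spread among WT arrays, an SD of 0.42 on the log2 scale, was larger than that of 92.6% of the genes tested.

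Agpat2, the gene for an enzyme that turns lysophosphatidate into phosphatidate and whose loss causes lipodystrophy with a fatty liver, was lower in SRSF3HKO. The WT arrays read 3084, 2439 and 2586, and the SRSF3HKO arrays 909, 657 and 1456. Every SRSF3HKO value lay below every WT value, with replicate 2 lowest. On the log2 scale the change was -1.48 ± 0.29 (limma adjusted p = 0.0172), which is 2.78-fold lower. All 7 probe sets had a negative change, from -1.58 to -1.10, the groups did not overlap for any of the 7, and 5 of them were called lower in limma's fit of all probe sets, in which 9.05% of 157833 were called, 4.73% higher and 4.32% lower. Over all probe sets tested, the groups did not overlap for 31.8%, 18.3% higher and 13.5% lower, and 25.8% had an unadjusted p under 0.05. Leaving out WT replicate 1, 2 or 3 ended the call, with limma adjusted p-values of 0.0878, 0.0761 and 0.0634 at log2 changes of -1.38 to -1.55. Without SRSF3HKO replicate 1, the array with the high macrophage signal, it was -1.44 (limma adjusted p = 0.0312).

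Agpat3, which codes for a related acyltransferase with a preference for polyunsaturated chains, was at 602, 573 and 609.9 in WT and 552, 617 and 633 in SRSF3HKO. These values interleave. The log2 change was 0.00 ± 0.17 with a 95% interval of -0.39 to 0.40 (limma adjusted p = 0.990). The spread of Agpat3 within the genotypes was small, an SD of 0.045 in WT and 0.10 in SRSF3HKO on the log2 scale. Among its 16 probe sets, changes ran from -0.22 to 0.39, none was called, and 1 had an unadjusted p under 0.05 (limma).

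The 3 lipin genes code for phosphatidate phosphatases. Lipin 1 and lipin 2 are the main forms in liver, and lipin 1 also acts in the nucleus as a partner of the coactivator PGC-1α and the receptor PPARα. Lpin1 and Lpin2 showed opposite signs, which is why the bases before their start sites are shown with those of Agpat2. RefSeq windows (GRCm38.p6) were found for 8 of the 10 genes, 12 windows in all, and the 250 bases before the start were searched on both strands for CACGTG, the E-box bound by factors such as ChREBP, for CCAAT, bound by NF-Y, for TCACNCCAC, a sterol regulatory element, and for GGGCGG, bound by Sp1. Matches are in capitals, and a match is a description of the letters only. The windows lie at chr2:26604418-26604667 (minus strand) for Agpat2, chr12:16610967-16611216 (minus strand) for Lpin1, and chr17:71183282-71183531 and chr17:71204404-71204653 (plus strand) for windows 1 and 3 of Lpin2.
Agpat2: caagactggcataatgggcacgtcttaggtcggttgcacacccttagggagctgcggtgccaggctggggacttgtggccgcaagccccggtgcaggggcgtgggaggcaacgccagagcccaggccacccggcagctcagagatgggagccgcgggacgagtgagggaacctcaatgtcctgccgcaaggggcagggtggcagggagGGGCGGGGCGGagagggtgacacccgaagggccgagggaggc
Lpin1: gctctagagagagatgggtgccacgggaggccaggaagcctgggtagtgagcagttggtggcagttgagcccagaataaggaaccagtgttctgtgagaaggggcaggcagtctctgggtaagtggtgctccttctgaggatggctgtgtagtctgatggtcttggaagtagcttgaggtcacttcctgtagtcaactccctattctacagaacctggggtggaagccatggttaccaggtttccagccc
Lpin2 window 1: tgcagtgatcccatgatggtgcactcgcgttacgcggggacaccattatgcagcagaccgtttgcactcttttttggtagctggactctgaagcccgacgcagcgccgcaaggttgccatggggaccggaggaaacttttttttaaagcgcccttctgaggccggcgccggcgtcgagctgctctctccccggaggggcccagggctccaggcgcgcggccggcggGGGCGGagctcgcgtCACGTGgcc
Lpin2 window 3: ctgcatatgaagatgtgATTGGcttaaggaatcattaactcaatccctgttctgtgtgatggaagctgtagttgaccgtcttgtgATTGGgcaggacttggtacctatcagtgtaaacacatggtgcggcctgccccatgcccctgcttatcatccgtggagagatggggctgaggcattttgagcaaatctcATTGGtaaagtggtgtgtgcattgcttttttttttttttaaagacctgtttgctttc

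The Agpat2 window holds 2 matches of GGGCGG that overlap by their outer base, and the Lpin1 window holds none of the 4 motifs. Window 1 of Lpin2 holds GGGCGG and a CACGTG that begins 9 bases before the start, the only CACGTG in the 12 windows, and window 3 holds 3 CCAAT, all read on the other strand as ATTGG. Window 2 of Lpin2, which is not shown, holds 1 GGGCGG that begins 79 bases before its start and none of the other motifs. Of 32851 windows of the same length in the table, 6.02% hold CACGTG, 33.8% CCAAT, 1.05% TCACNCCAC and 32.7% GGGCGG. Among the 12 windows of these genes 2 hold CCAAT, 5 hold GGGCGG and none holds TCACNCCAC.

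Lpin2 was higher in SRSF3HKO. Its intensity was 526, 500.2 and 851 on the WT arrays and 1472, 2986 and 1229.8 on the SRSF3HKO arrays. The groups did not overlap, and SRSF3HKO replicate 2 was the highest of the 6. The log2 change was 1.51 ± 0.36 (limma adjusted p = 0.0330), which is 2.84-fold higher. All 26 probe sets above the floor had a positive change, from 0.67 to 1.81 with a median of 1.45, and 14 were called higher. The groups did not overlap for 23 of the 26, against 18.3% of all probe sets in this direction. It was lost on leaving out WT replicate 1, 2 or 3, with limma adjusted p-values of 0.128, 0.138 and 0.0562, and with the mean or median polish over probe sets in place of the median (log2 changes of 1.35 and 1.42, limma adjusted p = 0.0648 and 0.0586).

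Lpin1 divided the SRSF3HKO arrays. The WT arrays read 626, 869 and 979, whereas SRSF3HKO read 166, 1020.2 and 240.3. Replicates 1 and 3 lay below every WT array and replicate 2 above every one. In every one of the 23 probe sets replicates 1 and 3 were below the lowest WT value and replicate 2 was at or above it. The probe sets share the same RNA, so this repeats the pattern across the gene and adds no replicate. The log2 change was -1.18 ± 0.57 with a 95% interval of -2.50 to 0.13 (limma adjusted p = 0.215), and the 23 probe sets ran from -1.59 to -0.88 with none called and 2 at an unadjusted p under 0.05. The SD of 1.33 among SRSF3HKO arrays exceeded that of 98.9% of the genes tested. Without SRSF3HKO replicate 2 the change was -1.94 ± 0.24 (limma adjusted p = 0.00355), a value obtained by leaving out the array that differs and not a test of the genotype. Without SRSF3HKO replicate 1 it was -0.68 (limma adjusted p = 0.434).

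Lpin3, the third lipin gene, was dim. It read 68.6, 45.7 and 58.9 in WT and 93.7, 100.1 and 76.5 in SRSF3HKO. The groups did not overlap, by a margin smaller than the SD within either, and the log2 change of 0.53 ± 0.20 did not pass (limma adjusted p = 0.119). Of 25 probe sets 23 were above the floor, with 18 positive and 5 negative changes, none called and 6 at an unadjusted p under 0.05 (limma). Probe set 4938333 stood apart. Its intensity was 101.9, 0.289 and 24.7 in WT and 138.2, 262.4 and 79.3 in SRSF3HKO, so the groups overlapped and WT replicate 2 was near 0. Relative to the other probe sets of Lpin3 its use was higher by 1.56 on the log2 scale (limma diffSplice adjusted p = 0.0186). Without WT replicate 2 the usage change was 0.91 (adjusted p = 0.770).

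The balance among the lipins was compared within each array. The log2 level of Lpin2 minus that of Lpin1 was -0.24, -0.78 and -0.20 in WT and 3.03, 1.53 and 2.28 in SRSF3HKO. All 3 SRSF3HKO arrays, replicate 2 included, lay above the 3 WT arrays, and the difference between genotypes was 2.69. Probes of different genes are not on a common scale, so only this shift between genotypes, not the sign of the ratio, can be read. For 3 against 3 arrays the smallest p of a two-sided exact permutation test is 0.1, which this pair reached, and 6 pairs were compared (exact permutation p adjusted over the pairs 0.12). Lpin3 minus Lpin2 shifted by -0.98 (exact permutation p = 0.1), and Lpin3 minus Lpin1 by 1.71 with overlapping groups (exact permutation p = 0.2). Lpin2 separated the arrays alone, so the separation of the pairs that hold it is not independent of that result. On SRSF3HKO replicate 2, where Lpin1 lay above every WT array, the separation of Lpin2 minus Lpin1 came from Lpin2.

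**Figure D2:**
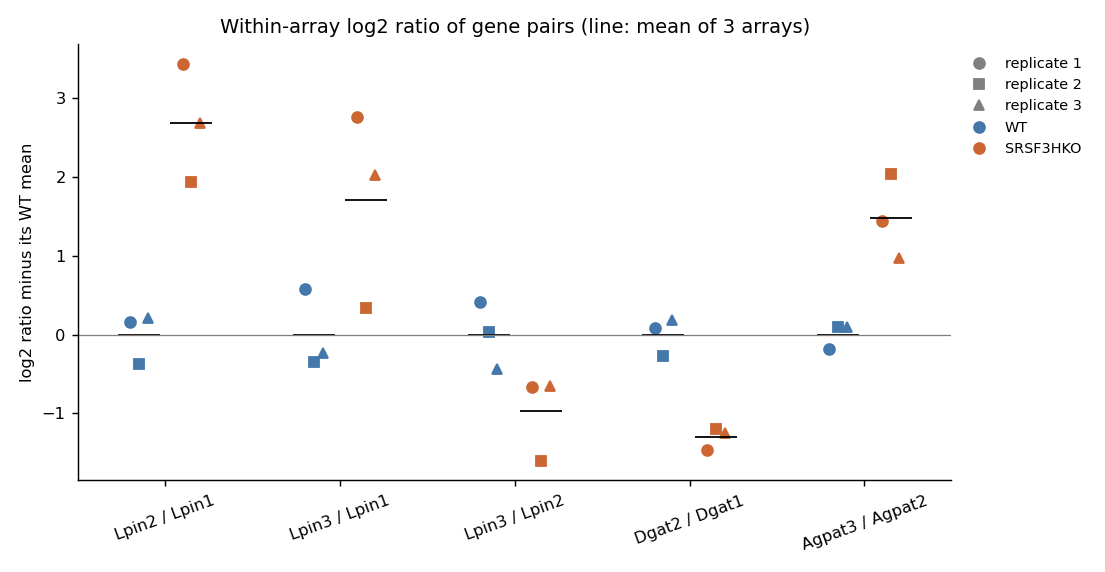
Within-array log2 ratio of 5 gene pairs, with the WT mean of each pair set to 0, for WT (blue) and SRSF3HKO (orange) arrays, with symbols for the replicates and lines for the means of 3 arrays. The SRSF3HKO arrays lie clear of the WT arrays for every pair shown except Lpin3 over Lpin1. The pair of Mogat1 and Dgat2 is left out because Mogat1 lay below the floor.

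The last step of synthesis is catalysed by 2 enzymes of unrelated families, DGAT1 and DGAT2, and their genes had changes of opposite sign. Dgat1 read 231, 247 and 255 in WT and 383, 347 and 415 in SRSF3HKO. The groups did not overlap and were tight, with SDs of 0.070 and 0.13 on the log2 scale. A log2 change of 0.61 ± 0.18 was found, with a 95% interval of 0.20 to 1.02 (limma adjusted p = 0.0626). With the mean or the median polish over probe sets the change was 0.87 under both, and the gene was called (limma adjusted p = 0.0148 under both). It was also called with a filter at the median level, with array weights and without SRSF3HKO replicate 2 (limma adjusted p = 0.0488, 0.0255 and 0.0285). In all, Dgat1 was called under 5 of 21 alternatives, and leaving out single arrays gave limma adjusted p-values of up to 0.215. In the fit of single probe sets 9 of 18 were called higher and none lower, and 17 were positive. The lowest change among the 17 was 0.66 and the median over the 18 was 0.88. The gene-level 0.61 thus lies below the change of each positive probe set. The gene level is a median taken on each array over probe sets of unlike brightness, so its change can differ from theirs.

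A single Dgat1 probe set went against the rest. Probe set 4701477 read 258, 299 and 390.4 in WT. In SRSF3HKO it read 268, 315 and 209.9, which gives a log2 change of -0.24. The groups overlapped there, whereas all 16 probe sets with no called usage change had higher values on every SRSF3HKO array than on any WT array and log2 changes of 0.66 to 1.12, an order found for 18.3% of all probe sets. Relative to the rest of the gene its use fell by 1.17 on the log2 scale (limma diffSplice adjusted p = 0.000288). This call was kept under 16 of 17 alternatives. Among these, the fit without a variance trend gave the same values as the main fit. The diffSplice test pools the spread over all probe sets of a gene, which share the same arrays, so its p-values do not treat the array as the only unit. The call ended with the splicing index, the probe set minus the gene level on each array, tested with limma (-0.85, adjusted p = 0.272). Probe set 5589535 rose by 1.66, from 10.7, 44.0 and 32.2 to 142.8, 88.0 and 130.5, and its use was higher by 0.84 (diffSplice adjusted p = 0.0259). That call was kept under 8 of 16 alternatives and was lost without WT replicate 1 or 3 or SRSF3HKO replicate 1 or 3 (diffSplice adjusted p = 0.612, 0.104, 0.361 and 0.177). The positions of these probe sets within Dgat1 were not analysed here. Of the 175 tested probe sets of the 10 genes, 3 (1.71%) had a called change in use, against 0.659% of 135700 probe sets overall. None of the 3 was called with the splicing index.

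**Figure D3:**
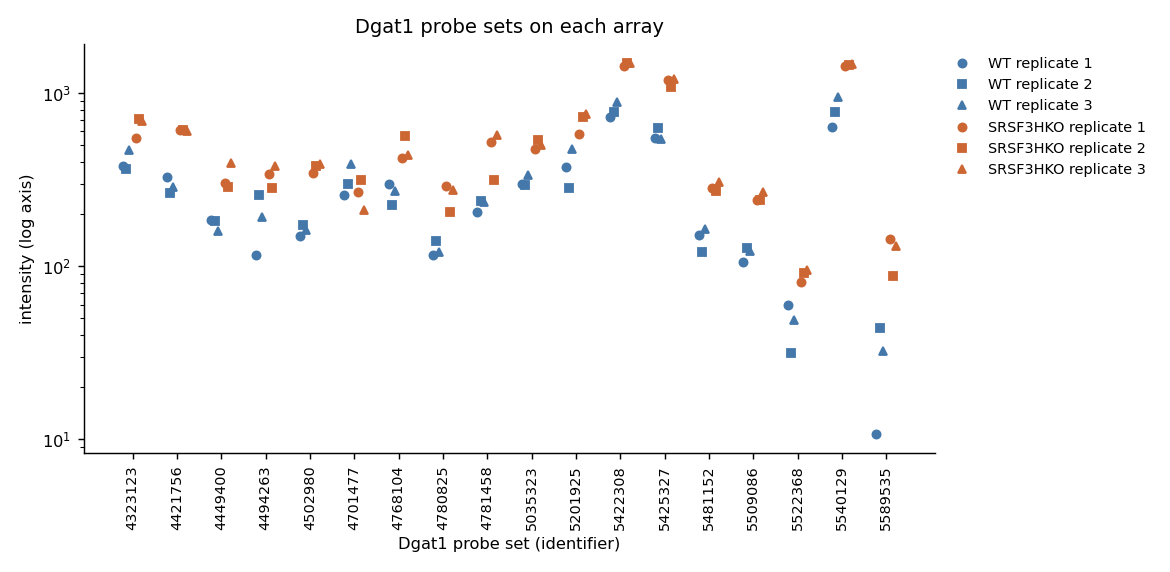
Intensity, on a log axis, of the 18 Dgat1 probe sets on the 3 WT (blue) and 3 SRSF3HKO (orange) arrays, ordered by identifier and not by position. The SRSF3HKO values lie above the WT values in 17 probe sets, and in probe set 4701477 the groups overlap.

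Dgat2 had the opposite sign. Its intensity was 3806, 3176 and 4504 in WT and 2088, 2295 and 2642 in SRSF3HKO, again with no overlap. The log2 change was -0.70 ± 0.19 with a 95% interval of -1.14 to -0.26 (limma adjusted p = 0.0521), just outside the threshold. It was called with median centring of the arrays, with a filter at the median level, with array weights and without SRSF3HKO replicate 2 (limma adjusted p = 0.0435, 0.0411, 0.0298 and 0.0484). These were 4 of 21 alternatives, and leaving out single arrays gave limma adjusted p-values of up to 0.176. All 13 probe sets were negative, from -1.02 to -0.32, and 2 were called lower. Within each array the level of Dgat2 minus that of Dgat1 was 3.96, 3.60 and 4.06 in WT and 2.41, 2.68 and 2.63 in SRSF3HKO. This shift of -1.31 separated all 6 arrays, with SDs of 0.24 and 0.14 (exact permutation p = 0.1, the smallest the design allows). Each of these genes separated the arrays alone, with opposite signs. The separation of their difference therefore follows from the gene levels and is no further evidence. Agpat3 minus Agpat2 separated the arrays too, as Agpat2 did alone, with a shift of 1.48 (exact permutation p = 0.1).

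Mogat1 codes for an enzyme that makes diacylglycerol from monoacylglycerol, a route that bypasses the lipins and is known to be induced in fatty liver. Its log2 level was 5.08, 4.55 and 4.82 in WT and 5.08, 4.48 and 5.19 in SRSF3HKO. All 6 values were under the floor of 5.35, none of its 6 probe sets was above the probe set floor of 5.62, and no fold is given. A transcript at or under the signal of receptor genes that liver is not known to express was not detectable on these arrays.

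Mttp, the gene of VLDL loading, read 2076, 1666 and 1695 in WT and 1441, 1771 and 1627 in SRSF3HKO. The groups overlapped. Mttp had a log2 change of -0.16 ± 0.18 with a 95% interval of -0.58 to 0.25 (limma adjusted p = 0.597). Of its 19 probe sets 17 were negative and 2 positive, from -0.53 to 0.14, with none called and none at an unadjusted p under 0.05 (limma). Among the 175 tested probe sets of the 10 genes, 23 were called higher and 7 lower, in Lpin2, Dgat1, Agpat2 and Dgat2 alone, which is 17.1% called against 9.05% of all probe sets (4.73% higher and 4.32% lower). The probe sets of a gene share its RNA, so their calls are not independent.

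**Figure D4:**
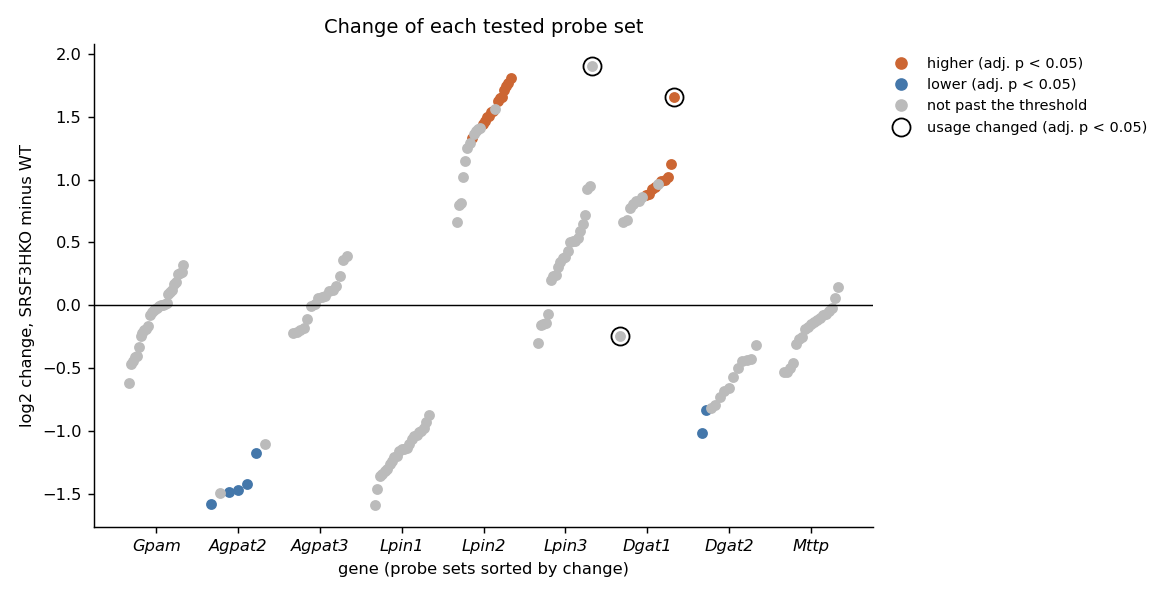
Log2 change, SRSF3HKO minus WT, of the 175 tested probe sets of 9 genes, sorted within each gene and coloured by limma's call over all probe sets, with circles around the 3 whose use changed by diffSplice. The probe sets of Agpat2, Lpin1 and Dgat2 are all negative and those of Lpin2 all positive, while those of Gpam, Agpat3, Lpin3 and Mttp cross 0.

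Genes around these 10 in the pathway were read from lists chosen with earlier results of these data known, and 12 of their 71 tested members (16.9%) were called, against 11.9% of all genes (6.85% higher and 5.03% lower). The counts per list are small, and none is read as differing from that share. None of the 9 tested genes for other acyltransferases and for glycerol 3-phosphate supply passed limma's test, and 3 had an unadjusted p under 0.05, with a median log2 change of 0.41 against 0.08 over all genes. Gk, which phosphorylates glycerol, had a change of -0.68 ± 0.22 and the acyltransferase gene Agpat5 one of 0.75 ± 0.25 (limma adjusted p = 0.0842 and 0.0864), both without overlap. In the phospholipid branch 2 of 19 rose and 1 fell, with a median of 0.08. Plpp3, which codes for a lipid phosphatase of the cell surface, fell by 1.65 ± 0.26 on the log2 scale (limma adjusted p = 0.00847), its relative Plpp2 rose by 0.96 ± 0.26, and the choline kinase gene Chka rose by 1.31 ± 0.31 (limma adjusted p = 0.0479 and 0.0345).

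Of 14 tested genes for VLDL assembly and secretion 2 fell and none rose, with 12 negative (4988 of 11707 over all genes) and a median of -0.30. The genes that fell were the carboxylesterase gene Ces1g (-1.95 ± 0.36) and the deacetylase gene Aadac (-0.96 ± 0.26), both for enzymes of the endoplasmic reticulum (limma adjusted p = 0.0149 and 0.0468). P4hb, which codes for the partner subunit of MTTP, had a change of -0.16 ± 0.17 (limma adjusted p = 0.576). Fatty acid uptake and activation held 1 gene that rose, the fatty acid receptor gene Cd36 (1.44 ± 0.35), and 2 acyl-CoA synthetase genes that fell, Acsl1 (-1.53 ± 0.22) and Acsl5 (-0.99 ± 0.24), of 9 tested (limma adjusted p = 0.0356, 0.00683 and 0.0353). Among 20 tested regulators 4 fell and none rose, namely Cebpa (-1.48 ± 0.33), the glucocorticoid receptor gene Nr3c1 (-0.76 ± 0.18), Insig1, which holds SREBP in the endoplasmic reticulum (-1.77 ± 0.43), and Ppara (-0.93 ± 0.23), with a list median of -0.36 (limma adjusted p = 0.0263, 0.0320, 0.0362 and 0.0404). Of these 12 calls 10, 10 and 9 were lost without WT replicates 1, 2 and 3, with the direction kept, and the call of Acsl1 was the only one to stand without each array in turn. With the Y-linked signal, present on WT replicates 1 and 2 and SRSF3HKO replicate 3, as a covariate, 5 were left, Acsl1, Cd36, Ces1g, Chka and Plpp3, and Agpat2 and Lpin2 were called as well (limma adjusted p = 0.0296 and 0.0426).

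**Figure D5:**
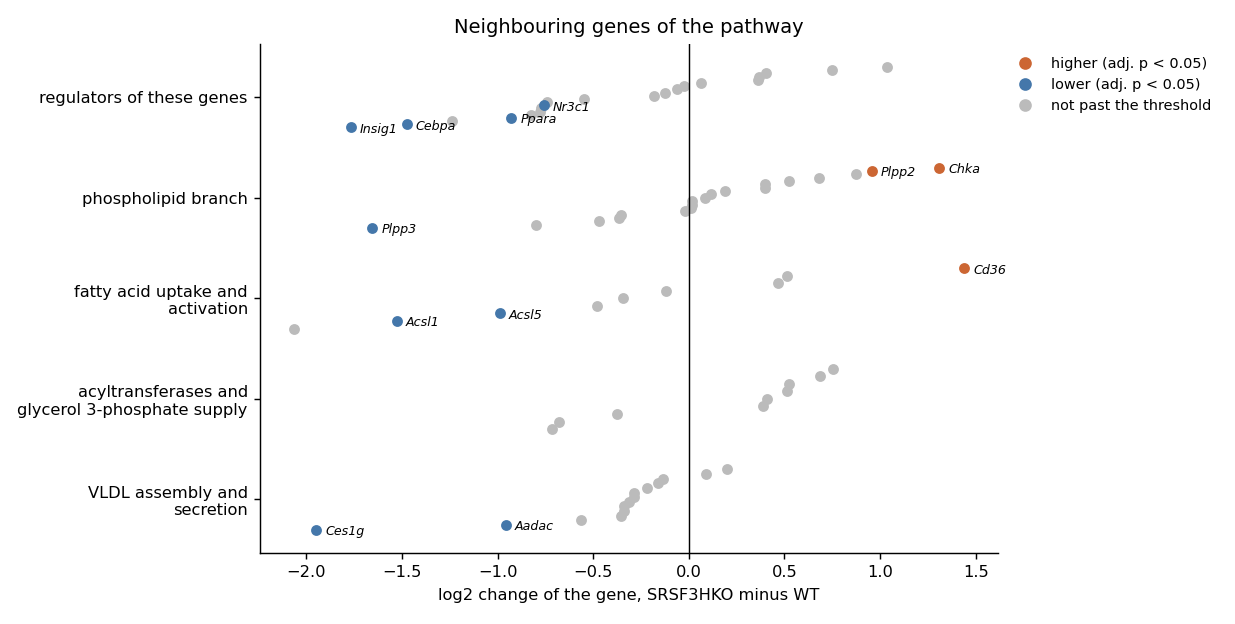
Log2 change, SRSF3HKO minus WT, of the 71 tested genes in 5 neighbouring lists, 1 point per gene, with the 12 called genes coloured and named. The VLDL list and the regulators lie mostly below 0, with 12 of 14 and 14 of 20 genes negative. Over all genes tested 4988 of 11707 were negative. No gene of the acyltransferase list was called.

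The genes whose 6 values followed those of the called members most closely were found as the smallest root mean square difference of the log2 deviations from each gene's mean, over 6 arrays and all genes tested. For Agpat2 they were Fpgs (0.086), the glycogen phosphorylase gene Pygl (0.094) and Bdh2 (0.11), with log2 changes of -1.39, -1.44 and -1.53. For Lpin2 they were Pdgfra (0.13), Ofd1 (0.18) and Slc25a27 (0.19), with log2 changes of 1.57, 1.28 and 1.25. This likeness is a description over arrays that share a genotype.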

How the data were processed

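Liver RNA of SRSF3HKO mice (3 arrays) and WT mice (3 arrays) was hybridised to Affymetrix exon arrays. The authors deposited linear intensity values of core exon probe sets, summarised with PLIER in Affymetrix Expression Console, per the submitters' processing notes and the labels; versions, background step and genome build are not given in the sources used here. The labels give the genotype, and replicate numbers only name the samples.

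The array annotation assigned 208397 probe sets to 1 gene, 3965 to several and 17219 to none, and 2124 older symbols were updated through RefSeq. Intensities were transformed as log2(value + 16), and each gene took the median of its probe sets as its level. Features were tested above a detection floor, 5.35 for genes and 5.62 for probe sets, set at percentile 90 of 1044 genes for olfactory, vomeronasal or taste receptors. Tests used limma 3.58.1 (eBayes with trend, Benjamini-Hochberg) in R 4.3.3. Probe set usage was tested with diffSplice where a gene had 3 or more tested probe sets, 135700 probe sets in 10881 genes. Intervals are 95% intervals of limma's estimate. The scripts were tested on simulated data. Figures were drawn with matplotlib 3.10.9, numpy 2.4.6 and pandas 2.3.3 under Python 3.11.15.

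The members and lists were chosen with earlier results of these data known. Of 83 listed neighbouring genes 74 had probe sets of 1 gene, and the others were not analysed here. Named were the 10 members, Srsf3, up to 4 called genes per list, probe sets with called usage and the 3 genes most like each called member. The single cell type markers, P4hb, Gk, Agpat5, Fabp1 and Ppargc1a were named after their values were seen. Alternatives were quantile normalization, median centring, pseudocounts of 1 and 64, the mean, median polish or brighter probe sets as summary, a filter at the median or none, other variance models, array weights, a stricter adjusted p of 0.01, a minimum change of 1.5-fold, the splicing index, a Y-linked covariate and leaving out each array.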

Additional observations from a re-analysis of the deposited data

How the results depend on the processing

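Alternatives for the neighbouring genes were chosen after seeing the data. Over 21 alternatives for each of the 9 tested genes, 160 of 189 values kept their direction and side of the threshold, 10 lost a call, 11 gained one and 8 changed sign. The 8 changes of sign were in Agpat3 and Gpam. Agpat3 was -0.059 with quantile normalization, -0.049 with median centring and -0.039 to 0.059 on leaving out each array. Gpam was 0.00033 with the Y-linked covariate and -0.28 to 0.18 on leaving out each array, and Srsf3 was -0.022 to 0.58, below 0 without SRSF3HKO replicate 1. The count of called members, 2, became 4 with a filter at the median, 5 with array weights and 0 at an adjusted p under 0.01 (5 at an unadjusted p under 0.05, limma), and leaving out each array gave 0 to 5. At 0, without WT replicate 1, 2 or 3, limma gave 5, 4 and 4 members at an unadjusted p under 0.05. Without SRSF3HKO replicate 2, or with array weights, the 5 were Agpat2, Dgat1, Dgat2, Lpin1 and Lpin2. Called member probe sets, 30, became 59 with array weights, 19 with the Y-linked covariate, 0 at an adjusted p under 0.01 (66 at an unadjusted p under 0.05, limma), and 0 to 58 without single arrays, the 0 without WT replicate 1 (54 at an unadjusted p under 0.05). Probe sets with called usage, 3, became 1 with a filter at the median, at an adjusted p under 0.01 and with the Y-linked covariate, 0 with the splicing index (22 at an unadjusted p under 0.05, limma), and 1 to 2 without single arrays. The count of called genes, 1391, became 2157 with array weights, 296 at an adjusted p under 0.01, 732 with the Y-linked covariate and 244 to 2155 without single arrays. Called neighbouring genes, 12, became 2 at an adjusted p under 0.01, 5 with the Y-linked covariate and 2 to 14 without single arrays. No paired analysis was possible because the labels give the genotypes no shared replicate numbers. Signal over background limits Mogat1, which lay under the floor, and understates the change of Lpin3.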

Other observations

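SRSF3HKO replicate 2 held the extreme value among the SRSF3HKO arrays for several genes of lipid handling. Over all genes tested it also deviated most from its group mean. The root mean square deviation was 0.42, against 0.37 and 0.31 on SRSF3HKO replicates 1 and 3. The pattern is therefore not particular to lipid genes. On replicate 2 Lpin1 (10.02) and Lpin2 (11.55) were at their highest and Agpat2 (9.39) at its lowest log2 level of the 3 SRSF3HKO arrays. Gpam, Lpin3 and Mttp were also at their highest of these arrays on replicate 2 and Dgat1 at its lowest, while Dgat2 and Agpat3 lay between the others. Of 3 arrays only 1 can lie between the others for a gene, so an extreme value on a given array is the usual case. The fatty acid binding protein gene Fabp1 had log2 levels of 12.97, 9.25 and 12.05 on SRSF3HKO replicates 1, 2 and 3 against 13.43 to 13.55 in WT, and its change of -2.06 ± 0.79 did not pass (limma adjusted p = 0.128). The gene of the coactivator PGC-1α, Ppargc1a, was at 7.58, 8.49 and 7.28 in SRSF3HKO and at 6.44, 6.38 and 7.40 in WT, with overlapping groups (limma adjusted p = 0.116). Insig1 was at 9.12, 11.06 and 10.09 in SRSF3HKO. These genes were picked after their values were seen, and no cause was tested.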
